A study of Homo sapiens with 10 samples.

Results

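Broad H3K4me3 domains are stretches of several kilobases in which nucleosomes carry trimethylated lysine 4 of histone H3. They were chosen here by width alone, as peaks of the authors' H3K4me3 list that span 5000 bp or more (end minus start) on chromosomes 1 to 22. The rule found 707 domains among 17403 H3K4me3 peaks on these chromosomes, or 4.06%, and the deposited list held 18019 peaks in all. The cells were MDAMB231, an established human breast cancer line of the triple-negative, basal-like kind, grown in DMEM with 5% FBS and given no treatment. Chromatin immunoprecipitation with sequencing (ChIP-seq) was done on 2 samples each for H3K4me1, H3K4me3 and H3K27Ac, beside 1 ChIP input. Formaldehyde-assisted isolation of regulatory elements (FAIRE), which recovers DNA that few nucleosomes occupy, was done on 2 samples crosslinked with 1% formaldehyde, beside 1 FAIRE input. Peaks were called after pooling the reads of an assay's samples, which gives 1 list per assay, so no value below carries an error between replicates. The comparisons between widths were not tested, and peaks are not independent replicates. The 95% Wilson intervals given with shares cover counting error over regions only.

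H3K4me3 is laid down around the start sites of active genes, mostly by the SET1 and MLL families of methyltransferases, which are guided there in part by proteins that bind unmethylated CpG. At most active genes the mark forms a narrow peak over the nucleosomes next to the start, while at some genes it spreads far into the gene body, and such broad domains are known for marking genes of cell identity and tumour suppressors. H3K27Ac marks active promoters and enhancers, H3K4me1 is typical of enhancers and of the shoulders of promoters, and FAIRE peaks mark open chromatin where regulatory proteins bind.

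The CpG content of a promoter in a domain can be read directly from its sequence. The 250 bases before the start are printed for the gene of the widest domain that holds a protein-coding start and no other gene start, and then for TUBB, a widely expressed tubulin gene under a narrower peak of 4415 bp, and RPS27, a ribosomal protein gene under a peak of 2549 bp. All are from GRCh37 (hg19), written 5′ to 3′ on the strand of the gene, and capitals mark each CG. LAMA5, a laminin chain of basement membranes, lies on the minus strand (chr20:60942369-60942618) and has 32 CG in this window. TUBB (plus strand, chr6:30687879-30688128) has 21 and RPS27 (plus strand, chr1:153962988-153963237) has 9, so a CG-rich promoter also stands under a narrower peak.
LAMA5: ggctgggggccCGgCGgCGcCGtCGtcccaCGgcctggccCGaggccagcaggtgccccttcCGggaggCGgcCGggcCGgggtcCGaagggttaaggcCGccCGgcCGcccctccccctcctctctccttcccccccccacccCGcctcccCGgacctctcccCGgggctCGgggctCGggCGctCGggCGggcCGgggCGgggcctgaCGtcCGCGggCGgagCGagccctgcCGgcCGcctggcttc
TUBB: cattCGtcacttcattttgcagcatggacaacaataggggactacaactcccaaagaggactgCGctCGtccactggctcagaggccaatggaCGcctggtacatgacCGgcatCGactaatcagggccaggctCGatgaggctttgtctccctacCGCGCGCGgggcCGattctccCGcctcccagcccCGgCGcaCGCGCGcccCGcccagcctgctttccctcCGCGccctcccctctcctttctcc
RPS27: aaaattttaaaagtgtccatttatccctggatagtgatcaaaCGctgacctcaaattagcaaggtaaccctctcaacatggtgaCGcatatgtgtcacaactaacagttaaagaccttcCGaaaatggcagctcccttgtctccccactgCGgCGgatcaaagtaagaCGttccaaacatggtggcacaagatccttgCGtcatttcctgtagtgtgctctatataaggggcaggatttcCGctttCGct

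Away from gene starts, 26.0% of the open sites inside the domains held the heptamer TGANTCA, to which AP-1 factors (dimers of FOS and JUN proteins) bind, against 20.9% in peaks of 2500 to under 5000 bp, 24.2% in those of 1000 to under 2500 bp and 33.8% outside H3K4me3 peaks. Shown next are 200 bases around the centre of a FAIRE peak in each of 3 wide domains, on the plus strand of GRCh37, with capitals marking each match to TGANTCA on either strand. These windows were picked because they hold a match, lie over 500 bp from any transcript start and touch no annotated exon, so they show the letters and not how frequent they are. The first lies in the 15971 bp domain at a transcript start of MIR100HG, a microRNA host RNA (chr11:122037984-122038183), has 2 matches and is 10263 bp from the nearest start. The LMNA window, from the gene of lamins A and C (chr1:156097059-156097258), has 1 match under a FAIRE peak of height 115. The HMGA1 window, from a gene of a DNA-bending chromatin protein (chr6:34212407-34212606), has 2 matches. Each of the 3 windows lies wholly inside its domain.
MIR100HG: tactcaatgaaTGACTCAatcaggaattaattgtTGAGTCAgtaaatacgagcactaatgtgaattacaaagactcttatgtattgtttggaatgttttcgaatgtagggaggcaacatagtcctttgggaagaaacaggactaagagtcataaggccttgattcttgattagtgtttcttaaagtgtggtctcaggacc
LMNA: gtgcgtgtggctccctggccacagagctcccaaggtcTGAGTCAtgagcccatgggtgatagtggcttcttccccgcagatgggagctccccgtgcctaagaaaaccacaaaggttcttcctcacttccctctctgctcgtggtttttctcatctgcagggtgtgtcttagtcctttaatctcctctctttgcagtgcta
HMGA1: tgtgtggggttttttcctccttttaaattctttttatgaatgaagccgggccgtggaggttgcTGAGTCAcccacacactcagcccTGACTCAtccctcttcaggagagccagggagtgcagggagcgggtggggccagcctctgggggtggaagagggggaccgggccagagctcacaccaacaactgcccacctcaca

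Width, the measure that chose the domains, is given here as a description. Their median width was 5840 bp, with quartiles of 5313 bp and 6732 bp, against 2530 bp over the whole H3K4me3 list. The narrowest measured 5001 bp and the widest 25036 bp, 143 measured 7000 bp or more and 25 measured 10000 bp or more. The domains covered 4.51 Mb, which is 9.73% of the bases under H3K4me3 peaks. The score of the authors' list could not rank them, since 681 of the 707 had a score of 3100 or more, the ceiling that 57.3% of H3K4me3 peaks reached. The other peaks fell into 3 narrower classes, 669 under 1000 bp, 7817 of 1000 to under 2500 bp and 8210 of 2500 to under 5000 bp. Just inside the threshold lay the peaks of LGR4, a receptor for R-spondins (5001 bp), of LRRC27 and STK32C (5001 bp) and of STARD4, a sterol carrier (5002 bp). Just outside lay those of RSBN1L (4996 bp), of DUSP1, a phosphatase of MAP kinases (4997 bp), and of MACF1, a cytoskeletal crosslinker, a base or so under 5000 bp. The peaks on either side of the threshold were alike in H3K27Ac, which covered 86.3% to 100% of each of these 6, and each held 1 or 2 FAIRE peaks.

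**Figure D1:**
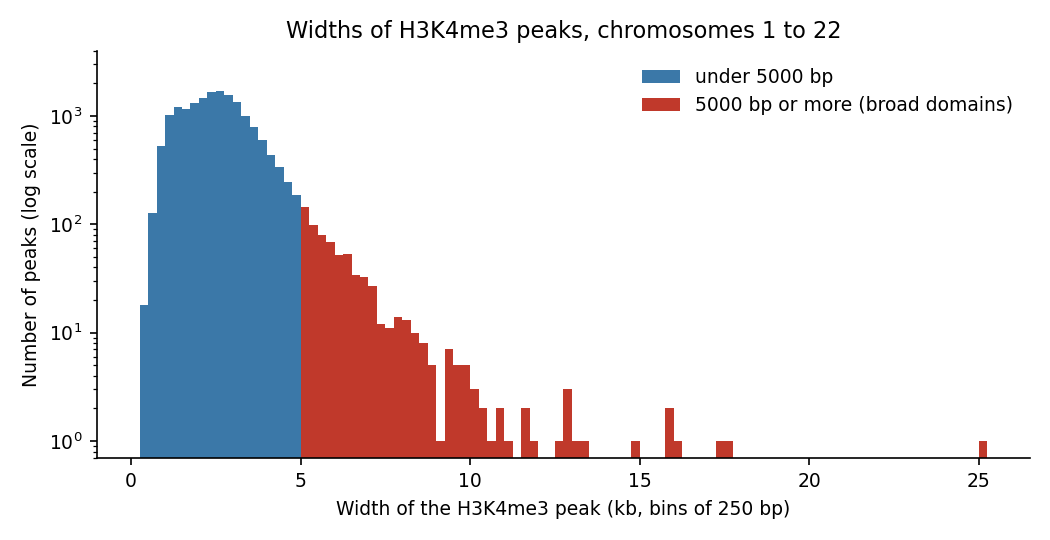
Number of H3K4me3 peaks (log scale) by width in kb, in bins of 250 bp, for chromosomes 1 to 22. The 707 broad domains (red) form a long tail that reaches 25036 bp and is continuous with the narrower peaks (blue).

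The 10 widest domains lay over genes of differing function. The widest, 25036 bp on chromosome 8, held transcript starts of PLEC, which encodes the cytoskeletal linker plectin, and of MIR661. On chromosome 11, a domain of 17535 bp held the starts of FIBP, CCDC85B and FOSL1, the last encoding the AP-1 factor FRA1. The domain of NR2F2, an orphan nuclear receptor, measured 17429 bp and that of LAMA5 16035 bp. The MIR100HG domain came next at 15971 bp and lay inside an H3K27Ac peak of 51060 bp. DUSP4, a nuclear phosphatase of ERK, had a domain of 15840 bp and LMNA one of 14755 bp. NEAT1, the scaffold RNA of paraspeckles, had 13352 bp, DCBLD2, a membrane protein, 13135 bp, and TNRC18 12993 bp. Each of these 10 was covered by H3K27Ac over 100% of its length and held 2 to 5 FAIRE peaks, while 6 of them held no H3K4me1.

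Most domains stood on a gene start. Using the start of each gene record in GENCODE version 44 on GRCh37, 568 of the 707 (80.3%, 77.2% to 83.1%) held a protein-coding start, where 56.7% of all H3K4me3 peaks did. That share was near the 78.6% of peaks of 2500 to under 5000 bp. By number, 438 domains held 1 coding start, 113 held 2, 17 held 3 or more and 139 held 0. With the start of any transcript of a coding gene, the count rose to 674 (95.3%, 93.5% to 96.7%), since 106 of the 139 lay on an alternative start. Thus LMNA, RUNX1 (a transcription factor of blood formation, domain of 11986 bp) and NR3C1 (the glucocorticoid receptor, 11547 bp) had broad domains on transcript starts away from the start of the gene record. The same 95.3% compares with 92.5% of peaks of 2500 to under 5000 bp and 49.4% of those of 1000 to under 2500 bp.

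The domains held the gene-record starts of 718 of 19229 protein-coding genes (3.73%), and a start of any transcript of 835 (4.34%). Among the genes with a transcript start in any H3K4me3 peak, 6.47% had one in a broad domain. The most coding starts in a domain were 4, and among those was the histone domain of 5692 bp with BOLA1, H2AC20, H2AC21 and H2BC21. A domain of 9950 bp held the starts of EHBP1L1, FAM89B and ZNRD2. Starts of long noncoding RNAs lay in 293 domains (41.4%), against 28.1% of peaks of 2500 to under 5000 bp and 13.4% of those of 1000 to under 2500 bp. That share rose with width inside the set, from 34.4% of the domains of 5000 to under 6000 bp to 45.3% of the 236 of 6000 to under 8000 bp and 64.6% of the 79 of 8000 bp or more, and wider regions have more room for a start.

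Among the 33 domains with no coding transcript start, 28 held a transcript start of another kind of gene, and 23 held the gene-record start of a long noncoding RNA. The 5 widest of the 33 were those of MIR100HG, NEAT1, MALAT1 (12834 bp), LINC-PINT (10738 bp) and LINC02939 with MIRLET7BHG (9419 bp). H3K27Ac was present at 33 of these 33, and FAIRE at 24 of them (72.7%). Only 5 domains held no annotated start of any transcript, and all 5 had H3K27Ac over more than 90% of their length. They measured 5202 bp to 6846 bp, and the widest lay 5295 bp from the start of LIF, the gene of a cytokine. Of the others, 3 lay 26043 bp from CRYBG1, 4730 bp from SLCO1B3-SLCO1B7 and 3253 bp from ZBTB7A. No transcript start in this annotation therefore stood under these H3K4me3 stretches.

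H3K27Ac accompanied the domains almost throughout. It shared at least 1 base with 696 of the 707 (98.4%, 97.2% to 99.1%), beside 81.2% of all H3K4me3 peaks. Yet peaks of 2500 to under 5000 bp already reached 96.7% (and peaks of 1000 to under 2500 bp 67.2%), so the presence of the mark separated the domains from narrow peaks and hardly from those just below them. Its extent was also large. In 429 domains (60.7%) H3K27Ac covered every base, and in 688 it came as a single H3K27Ac peak. Where the mark was present its median cover was 100% in the domains, 97.2% in peaks of 2500 to under 5000 bp and 100% in those of 1000 to under 2500 bp, so near-full cover was common to these widths. The median width of the H3K27Ac peak over a domain was 7026.5 bp. H3K27Ac lay within 1 kb outside 76.2% of the domain borders, and outside both borders at 61.4% of domains. Acetylation thus ran past many of the H3K4me3 borders but not all. The highest H3K27Ac score had a median of 3100 in the domains, at the ceiling, against 1483 for peaks of 2500 to under 5000 bp and 561 for those of 1000 to under 2500 bp.

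The 11 domains without H3K27Ac were few enough to name, and 6 of them held no FAIRE peak either. Among them were developmental signals, WNT11 (6044 bp) and SHH (5163 bp), ligands of the Wnt and Hedgehog pathways, and EFNA3 (5167 bp), an ephrin. The SHH domain was the one of the 11 that H3K4me1 covered over 100% of its length. Also without FAIRE were SLC2A1, the glucose transporter GLUT1 (5079 bp), AMOTL2, an angiomotin of the Hippo pathway (5059 bp), and ZNF217, a zinc-finger gene (5324 bp). The others held 1 or 2 FAIRE peaks. They were RHOF with SETD1B (10992 bp), the latter an H3K4 methyltransferase, BTG1 (8387 bp), an antiproliferative factor, PDE4DIP (8164 bp), MCL1 (7631 bp), an antiapoptotic BCL2 relative, and CPEB4 (6156 bp), a regulator of mRNA translation. The names after the widest 5 go beyond the naming rule and were chosen after the values were seen.

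H3K4me1 was present in a minority of the domains. It shared a base with 276 (39.0%, 35.5% to 42.7%), beside 22.8% of all H3K4me3 peaks, 23.3% of those of 2500 to under 5000 bp and 20.5% of those of 1000 to under 2500 bp. Among peaks with a coding start the shares were 38.2% in the domains, 22.3% and 11.2%. The share depended on how overlap was counted. With the centre of the domain required inside an H3K4me1 peak it was 14%, which lies between the 9.27% of peaks of 2500 to under 5000 bp and the 18.8% of those of 1000 to under 2500 bp. In 123 domains H3K4me1 covered over 50% of the length, and in 21 it covered 100%. Cover of at least 50% was found at 17.5% of domains, 11.2% of peaks of 2500 to under 5000 bp and 19.0% of those of 1000 to under 2500 bp, so the domains lay between them. The widest of the 21 lay at AHNAK2 (8250 bp), FMNL1, a formin (7711 bp), PLAU, the urokinase gene (7525 bp), SLCO4A1, an anion transporter (7201 bp), and LAMB3, a laminin chain (6908 bp), and each of these 5 had H3K27Ac and 1 or 2 FAIRE peaks. The share with H3K4me1 was 36.2% at 5000 to under 6000 bp, 38.6% at 6000 to under 8000 bp and 54.4% at 8000 bp or more, and wider regions have more room for an overlap. The mean share of bases under H3K4me1 was 18.6%, 17.6% and 25.1% in the same order.

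**Figure D2:**
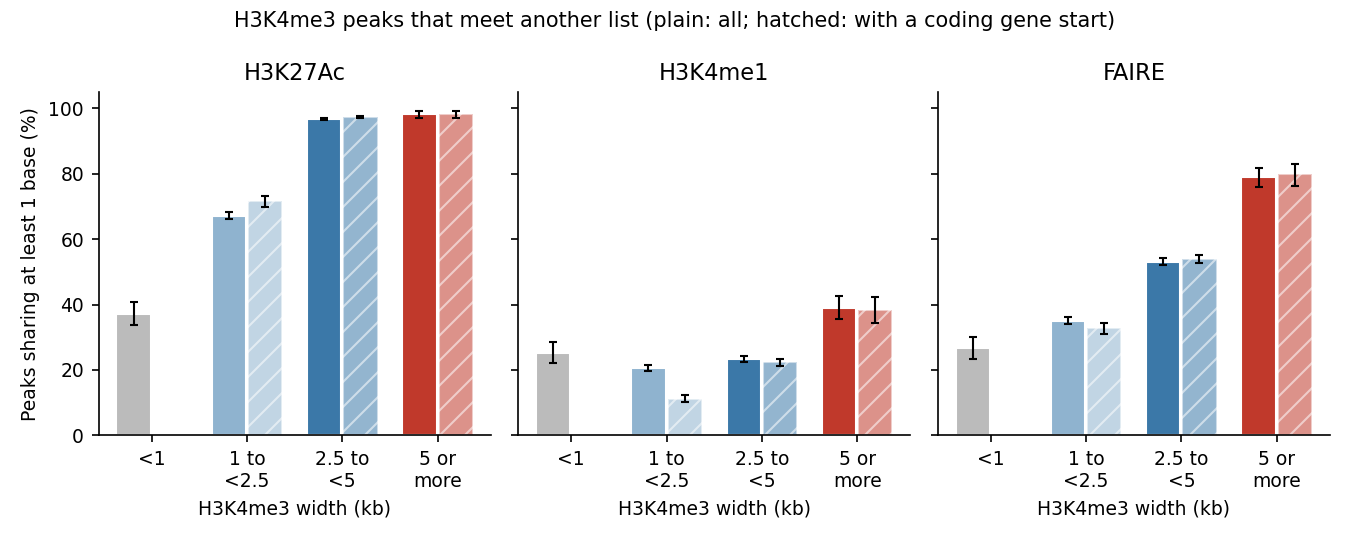
Share of H3K4me3 peaks (%) that share at least 1 base with H3K27Ac, H3K4me1 or FAIRE, by width in kb, for all peaks (plain bars) and those with a protein-coding gene start (hatched, not drawn under 1 kb), with 95% Wilson intervals. The domains (red) reach 98.4% for H3K27Ac, 39.0% for H3K4me1 and 78.9% for FAIRE.

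The position of the marks was read by averaging over both borders of every domain. H3K4me1 covered 25.1% of bases in the 250 bp just inside a domain border and fell to 13.6% at 2250 to 2500 bp inside, and outside it declined slowly to 14.3% near 5 kb. H3K27Ac rose steeply across the border, from 17.3% of bases near 5 kb outside to 83.7% in the 250 bp just inside and 97.8% at 2250 to 2500 bp inside. FAIRE stood at 9.79% just inside the border and peaked at 23.4% of bases at 1000 to 1250 bp inside. The domains thus showed H3K4me1 highest at the border, FAIRE highest about a kilobase in, and H3K27Ac highest in the interior. Within 2 kb outside, 376 of the 1414 domain borders (26.6%, 24.4% to 29.0%) met H3K4me1, against 16.5% for peaks of 2500 to under 5000 bp, 19.6% for those of 1000 to under 2500 bp and 24.7% for those under 1000 bp. H3K27Ac was met at 76.6% of the domain borders, against 56.0%, 46.3% and 35.4% in the same order. FAIRE was met at 16.3%, against 8.60%, 12.5% and 19.7%, so the narrowest peaks were nearest to the domains in H3K4me1 and above them in FAIRE.

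**Figure D3:**
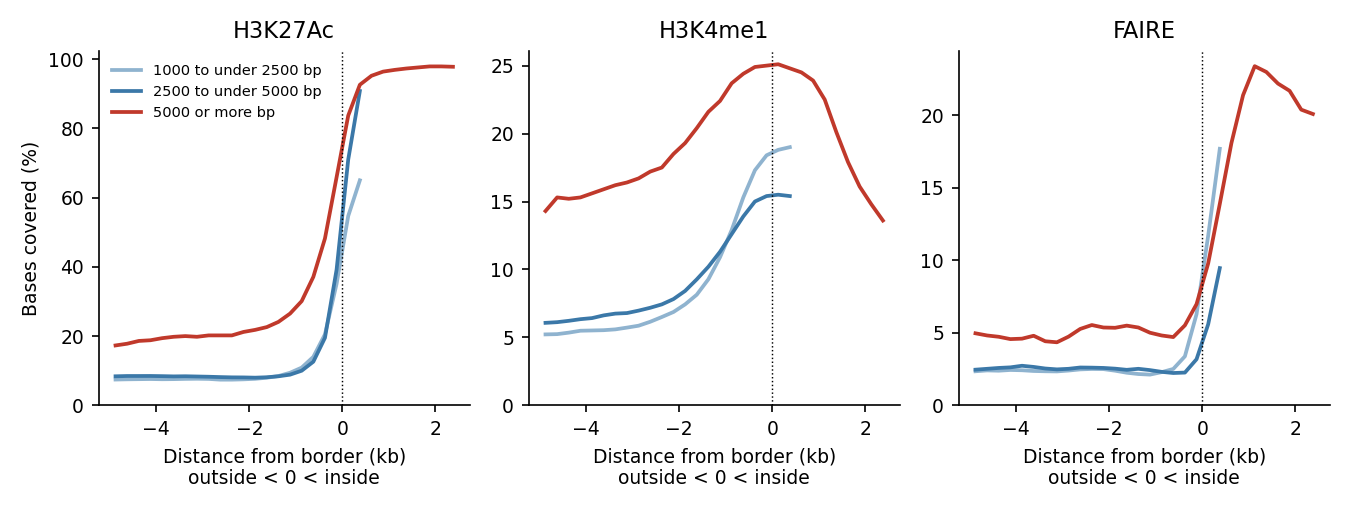
Share of bases covered (%) by H3K27Ac, H3K4me1 and FAIRE peaks against distance from the H3K4me3 peak border in kb (negative outside, positive inside), in bins of 250 bp averaged over both borders, by width class. The vertical scales differ. For the domains (red) H3K4me1 is highest at the border at 25.1%, and narrower peaks are drawn only as far inside as their width allows.

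FAIRE peaks were more frequent in the domains, and part of that went with their size. A FAIRE peak overlapped 558 of them (78.9%, 75.8% to 81.8%), beside 45% of all H3K4me3 peaks, 53.1% of those of 2500 to under 5000 bp and 35.0% of those of 1000 to under 2500 bp. There were 972 such FAIRE peaks, with 149 domains holding none, 278 holding 1, 183 holding 2 and 97 holding 3 or more. Thus 39.6% of domains had at least 2 FAIRE peaks, against 9.16% of peaks of 2500 to under 5000 bp. Per kilobase the contrast was small, with 0.216 FAIRE peaks per kb over the pooled domains against 0.193 over peaks of 2500 to under 5000 bp and 0.221 over those of 1000 to under 2500 bp. The median per region ran the other way against the next class, with 0.189 per kb in domains and 0.228 per kb in peaks of 2500 to under 5000 bp, and was 0 in those of 1000 to under 2500 bp. With the centre of the region required inside a FAIRE peak, the order turned, to 19.4% of domains against 25.5% and 23.2% of the narrower classes. The highest FAIRE peak in a domain had a median height of 81.1, against 68.2 and 65.3.

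Windows of equal size at gene starts set the width of the regions aside. Within 500 bp of the 718 coding starts in domains, 56.8% (53.2% to 60.4%) had a FAIRE peak, against 49.3% of the 7803 starts in peaks of 2500 to under 5000 bp, 31.9% of the 3065 in peaks of 1000 to under 2500 bp and 3.16% of the 7616 outside H3K4me3 peaks. H3K27Ac was found in 98.5% of these windows in domains, against 97.6%, 72.1% and 6.41%. H3K4me1 was found in 15.0% (12.6% to 17.8%), against 13.6% (12.9% to 14.4%), 9.98% and 4.65%. At the start itself, domains and peaks of 2500 to under 5000 bp were thus close in the presence of H3K27Ac and H3K4me1, and their intervals overlapped. They were not close in the H3K27Ac score. Where H3K27Ac met the window, its highest score had a median of 3100 in domains, against 1497 in peaks of 2500 to under 5000 bp and 550 in those of 1000 to under 2500 bp.

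Where a domain held 1 coding start, its FAIRE peaks lay farther from that start than in narrower peaks. In domains with 1 coding start, 33.1% of FAIRE centres were within 500 bp of it, against 65.5% in peaks of 2500 to under 5000 bp and 83.2% in those of 1000 to under 2500 bp. Beyond 500 bp, 44.5% lay downstream and 22.4% upstream in the domains. The median distance from the start was 1293 bp, against 251 bp and 170 bp, in regions that are themselves wider. Counted against every transcript start, 396 of the 940 FAIRE centres inside domains (42.1%) were over 500 bp away from any. These away sites numbered 0.149 per kb of such sequence in the domains, against 0.0822 per kb in peaks of 2500 to under 5000 bp and 0.179 per kb in those of 1000 to under 2500 bp. Near starts the same densities were 0.294, 0.296 and 0.245 per kb. The domains therefore matched the next class near starts and exceeded it, though not the narrower class, away from them, and 283 domains (40.0%, 36.5% to 43.7%) held at least 1 away site, against 12.0% and 16.7% of the narrower classes, which offer less sequence.

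Some domains held many open sites and others none. The most, 8 FAIRE peaks, lay in the domain of MT2A, a metallothionein gene, which measured 8642 bp, with 63.3% of its bases under FAIRE and 88.0% under H3K4me1. LMNA, ETV1 (an ETS factor, 8904 bp), BHLHE40 (a basic helix-loop-helix repressor, 8830 bp) and PTTG1IP (6916 bp) held 5 each. In contrast, the domain of HMGA2, an architectural chromatin protein, measured 9802 bp and held none, as did those of EPHA2, an ephrin receptor (8866 bp), MIR23AHG, a microRNA host (8812 bp), and ACTG1, a cytoplasmic actin (8641 bp). These 4 carried H3K27Ac over 96.7% to 100% of their length, so a wide acetylated domain did not always hold a FAIRE peak. Domains with H3K4me1 had FAIRE in 85.1% (80.5% to 88.9%) and those without it in 74.9% (70.6% to 78.8%). H3K27Ac, H3K4me1 and FAIRE occurred together in 233 domains.

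The domains extended mainly into the gene. In the 219 domains whose only gene start of any type was 1 coding start, H3K4me3 reached a median of 4244 bp downstream of it (quartiles 3653 bp and 5045.5 bp) and 1470 bp upstream. The downstream arm was the longer in 199 of them (90.9%), close to the 90% of peaks of 2500 to under 5000 bp and the 86.1% of those of 1000 to under 2500 bp. It made up a median of 75.7% of the width. In the corresponding 3406 peaks of 2500 to under 5000 bp the medians were 1952 bp downstream and 1096 bp upstream, with 64.4% of the width downstream. Since width chose the domains, these arms and shares are a description of the choice and nothing is read from their contrast. The LAMA5 domain, the widest of the 219, ran 12145 bp downstream and 3889 bp upstream. NRP1, a neuropilin receptor, had 7787 bp downstream and 2048 bp upstream. Genes with a start in a domain had a median length of 25191.5 bp, against 34693 bp for those in peaks of 2500 to under 5000 bp, but for the single-gene regions the medians were close, 36341 bp and 37705 bp.

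CpG-dense sequence ran longer in the domains than in narrower peaks, while its density at the start was similar. Around the 749 canonical starts in domains, the ratio of observed to expected CpG was 0.869 in the 250 bp from the start onward, against 0.856 for peaks of 2500 to under 5000 bp. At 1000 to 1250 bp downstream it was 0.598 against 0.456, and at 2000 to 2250 bp it was 0.420 against 0.303. Upstream, from 1250 to 1000 bp before the start, it was 0.589 against 0.438. Taken over whole peaks, GC content had a median of 53.2% in domains and 53.9% in peaks of 2500 to under 5000 bp, and the CpG ratio medians were 0.617 and 0.639, so the domains were not richer in CpG per base. The longest run of windows of 200 bp with GC over 50% and a CpG ratio over 0.6 had a median length of 1710 bp in domains and 1280 bp in peaks of 2500 to under 5000 bp. Runs of 2 kb or more were found in 260 domains (36.8%), against 11.2%, though wider regions have more room for a long run. As a share of the region such sequence ran the other way, with medians of 42.5% in domains and 48.9% in peaks of 2500 to under 5000 bp. No run of any length was found in 13 domains (1.84%) and in 1.75% of peaks of 2500 to under 5000 bp.

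**Figure D4:**
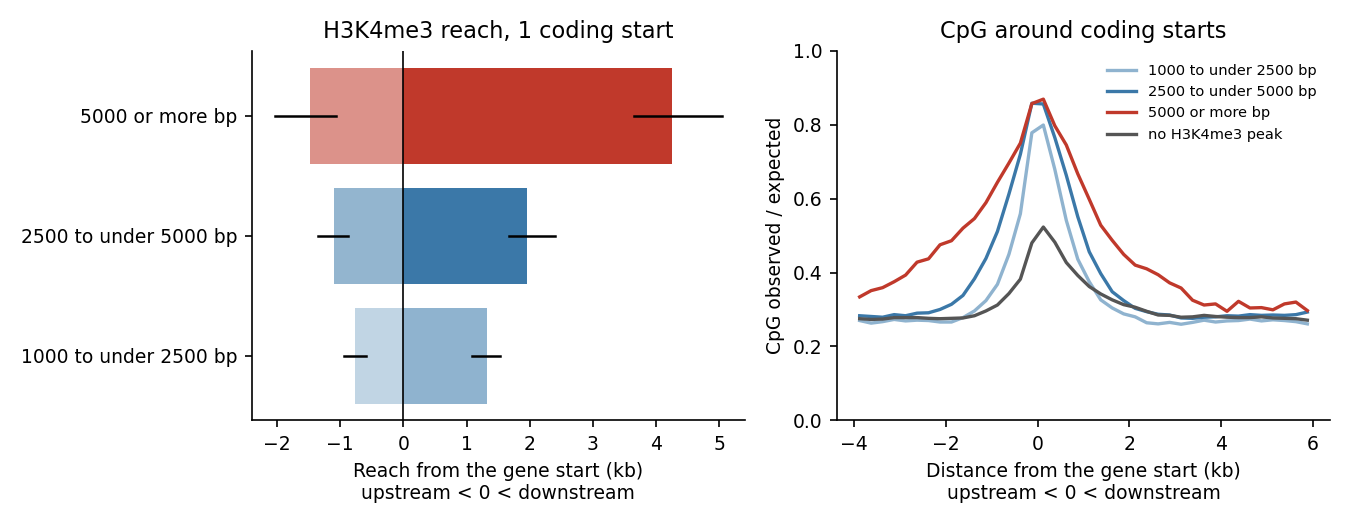
Left, median reach of H3K4me3 upstream (pale) and downstream (full colour) of the only gene start, in kb, by peak width, with quartiles as black lines. Right, ratio of observed to expected CpG in bins of 250 bp around canonical coding starts, in kb, by the width of the H3K4me3 peak at the start. In the domains (red) the median downstream arm is 4244 bp, and the CpG ratio falls off more slowly on both sides.

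Motif letters were counted at the starts of genes in domains. In the 300 bases from 250 before to 50 after the canonical start, searched on both strands, GGGCGG (the core to which SP1 binds) was in 81.4% of 749 promoters in domains, against 79.2% in peaks of 2500 to under 5000 bp and 61.8% of all 18978. CCGGAA, a core for ETS factors, was in 21.4% (18.6% to 24.4%), against 33.5% in peaks of 2500 to under 5000 bp and 23% of all. TATAAA was in 9.61% (7.70% to 11.9%), against 3.86% and 9.65%. TGANTCA was in 5.34% (3.95% to 7.19%), against 2.96% and 5.33%. At the 6692 starts without an H3K4me3 peak, which weigh on the share of all, CCGGAA was in 7.76%, TATAAA in 18.8% and TGANTCA in 8.59%. Promoters in domains thus had fewer CCGGAA and more TATAAA and TGANTCA matches than those of the next class. In peaks of 1000 to under 2500 bp, CCGGAA was in 28.0%, TATAAA in 5.66% and TGANTCA in 4.68% (4.01% to 5.46%). For TGANTCA that interval overlapped the interval of the domains. The other motifs, in domains and in the next class, were CCAAT (37.5% and 36.5%), CACGTG (8.54% and 10.5%), TGACGTCA (3.6% and 3.75%) and GGAATG, a TEAD core (10% and 9.41%), each with overlapping intervals. In all promoters these 4 were in 35.7%, 8.70%, 2.71% and 11.2%. None of the 8 motifs contains another, and a match is a description of sequence only.

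The open sites inside domains split by position. In 200 bp windows at the FAIRE centres, TGANTCA occurred in 103 of the 396 sites away from starts (26.0%, 21.9% to 30.5%) and in 58 of the 544 within 500 bp of a start (10.7%, 8.34% to 13.5%). In peaks of 2500 to under 5000 bp these shares were 20.9% and 5.77%, and in those of 1000 to under 2500 bp 24.2% and 10.6%. Outside H3K4me3 peaks 33.8% of away sites held the heptamer, so the domains lay near the other H3K4me3 peaks and below the sites outside them. GGGCGG ran the other way in domains, with 16.9% away from starts and 43.9% near them. The narrower classes shared this split, with 15.8% and 47.0% at 2500 to under 5000 bp and 10.8% and 32.7% at 1000 to under 2500 bp. The away sites of domains had a median GC content of 49%, against 47% and 45.5% in the same narrower classes. It was 43% for all away FAIRE sites and 58.5% for the domains' sites near starts. The 3 windows printed above with TGANTCA in capitals are examples of the away sites.

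Lists of genes were then counted against the background of all protein-coding genes, of which 4.34% had a transcript start in a domain. The lists were chosen with earlier results of these data known, so their counts are a description. Among immediate early and ERK feedback genes, 15 of 22 had a start in a domain (68.2%, 47.3% to 83.6%). They included DUSP4, SPRY4 (12968 bp), an inhibitor of receptor tyrosine kinase signalling, ZFP36L1 (10165 bp), an RNA-decay factor, DUSP6 (10056 bp), a phosphatase of ERK, KLF6 (9265 bp), a zinc-finger factor, and DUSP5 (8545 bp), a further ERK phosphatase. Over the domains of the 15, H3K27Ac covered from 64.9% (EGR3) to 100% of the length, and 4 of them, those of SPRED1, KLF4, ZFP36 and ZFP36L2, held no FAIRE peak. MYC, the growth-promoting factor, had a domain of 7829 bp with 2 FAIRE peaks.

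AP-1 factors had 4 of 10 in domains, and the other 6 under narrower peaks. Beside FOSL1, these were FOSL2 (8150 bp), JUNB (7071 bp) and JUN (5859 bp), while the peak of FOS measured 4707 bp and that of JUND 4830 bp. YAP and TEAD factors and targets had 7 of 14. AXL, a receptor tyrosine kinase, had a domain of 9510 bp, CCN1, a matricellular protein, 9409 bp, AJUBA, a LIM adaptor, 7825 bp, TEAD1, the transcription factor, 6341 bp, WWTR1, the coactivator TAZ, 5510 bp, and ANKRD1, an ankyrin-repeat target of YAP, 5094 bp. H3K4me1 covered 77.6% of the AXL domain and 64.6% of that of AJUBA, and was absent from those of TEAD1 and WWTR1. The group thus mixed domains with and without H3K4me1.

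Mesenchymal and cytoskeleton genes had 12 of 29 in domains. ITGA3, an integrin chain, had 8597 bp, VIM, the intermediate filament of mesenchymal cells, 8265 bp, PLAU 7525 bp, TLN1, the integrin linker talin, 7211 bp, ACTN4, an actinin, 6756 bp, and ANXA2, an annexin, 6561 bp. Of factors of the epithelial-mesenchymal transition, 0 of 8 had a domain, with 5 under narrower peaks, among them ZEB1 (4209 bp) and SNAI2 (4188 bp), and 3 under none. Epithelial adhesion genes had 1 of 18, CLDN7, a tight junction claudin, at 5003 bp (5.56%, 0.988% to 25.8%). CDH1, the gene of E-cadherin, had no H3K4me3 peak at any transcript start. Luminal lineage genes had 2 of 15, the keratins KRT8 and KRT18, which share a domain of 5023 bp. The intervals of the mesenchymal list (25.5% to 59.3%) and of the transition factors (0% to 32.4%) overlapped. Those of the transition factors, the epithelial genes and the luminal genes (3.74% to 37.9%) held the background of 4.34%.

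The TGF-beta pathway had 6 of 17 in domains, with its ligand TGFB2 (8197 bp), its effector SMAD3 (6751 bp), the ligand BMP4 (6326 bp), the receptor TGFBR2 (6304 bp), the inhibitor of differentiation ID1 (5954 bp) and the inhibitor SMAD7 (5926 bp). Tumour suppressor genes had 7 of 25 (28%, 14.3% to 47.6%), and only 4 by gene-record starts. Among the 7 were CDKN1B (6122 bp) and CDKN2C (5663 bp), inhibitors of cyclin-dependent kinases, STK11 (5222 bp), the kinase LKB1, and BRCA1 (5186 bp), a DNA repair gene. CDKN2A and CDKN2B had no H3K4me3 peak. Receptor tyrosine kinases and RAS genes had 4 of 23, AXL, EPHA2, IGF1R (6464 bp), the receptor of insulin-like growth factor, and EGFR, the receptor of epidermal growth factor (5331 bp). Genes of NF-kB and inflammation had 2 of 20, NFKBIA (5807 bp) and NFKBIZ (5437 bp), both inhibitor-of-kappa-B genes, and 1 by gene-record starts. The interval of the NF-kB list, 2.79% to 30.1%, held the 4.34% of all protein-coding genes.

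Widely expressed genes had 13 of 21 (61.9%, 40.9% to 79.2%), or 9 of 21 by gene-record starts, while the ERK feedback genes had 15 of 22 either way. Broad domains were thus not confined to genes of cell identity. EEF1A1, a translation elongation factor, had 9719 bp, ACTG1 8641 bp, ENO1 8065 bp, PKM 7195 bp, PFN1, the actin-binding profilin, 7068 bp, and CFL1, cofilin, 6969 bp. ENO1 and PKM are enzymes of glycolysis. Cytosolic ribosomal protein genes, which are also widely expressed, had only 2 of 43 (4.65%, 1.28% to 15.5%), RPL3 (6219 bp) and RPL7 (5152 bp), with the other 41 under narrower peaks. The lists of widely expressed genes thus lay far apart in their share of domains.

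Genes of chromatin and transcription machinery had 6 of 24 in domains. SETD1B was in the widest, 10992 bp, followed by BRD2, an acetyl-lysine reader (9015 bp), HEXIM1, an inhibitor of the elongation factor P-TEFb (6087 bp), KMT2A, an H3K4 methyltransferase (5674 bp), CXXC5, a CXXC-type zinc-finger gene (5555 bp), and KMT2D, another H3K4 methyltransferase (5185 bp). Of signalling adaptors, 3 of 21 lay in domains, ARHGEF2, an activator of RHOA (9434 bp), SHC1, an adaptor upstream of RAS (8339 bp), and YWHAZ (6278 bp). Long noncoding and microRNA host genes had 7 of 19, where 2.01% of all long noncoding RNA genes had a transcript start in a domain. The 7 were MIR100HG, NEAT1, MALAT1, SNHG1 (5924 bp), LINC00511 (5806 bp), MIR22HG (5776 bp) and GAS5 (5649 bp). The NEAT1 domain carried H3K4me1 over 54.6% of its length and its neighbour MALAT1 carried none.

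**Figure D5:**
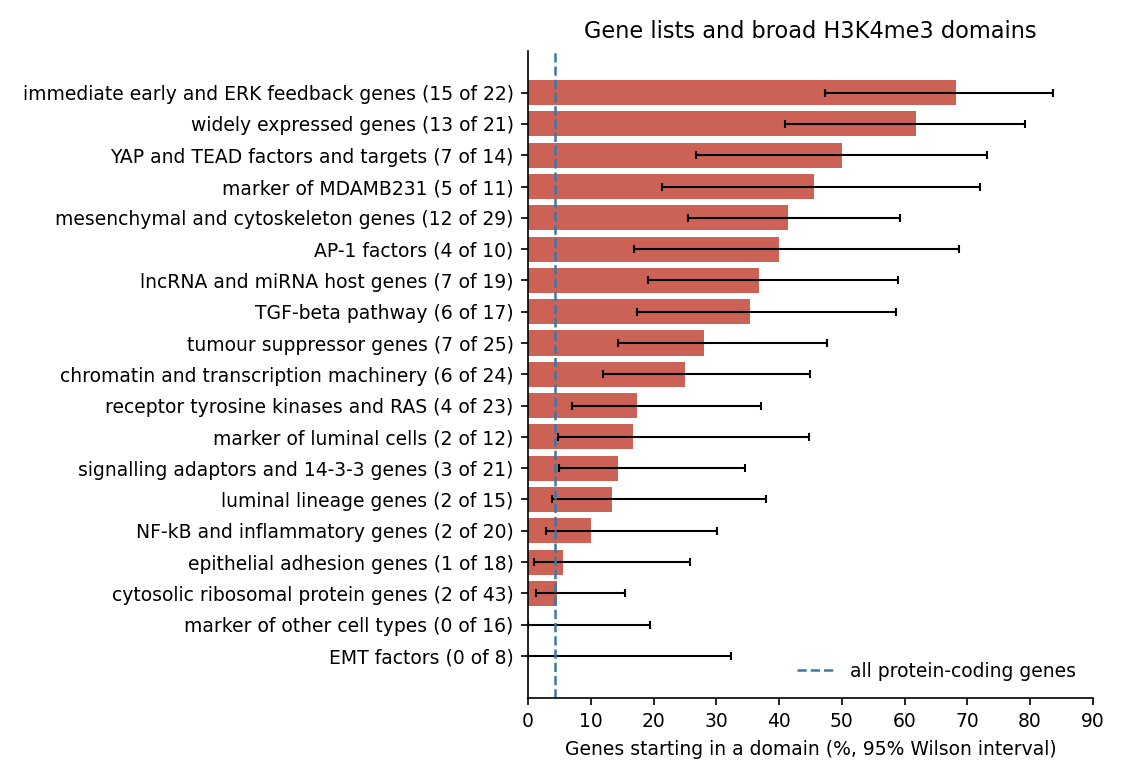
Share of the genes of each list (%) with a transcript start in a broad H3K4me3 domain, with 95% Wilson intervals and counts. The dashed line is the share of all protein-coding genes, 4.34%, which is not the background of the noncoding list. Immediate early and ERK feedback genes stand highest at 68.2%, and factors of the epithelial-mesenchymal transition and markers of other cell types stand at 0.

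The labelled cell type was checked on marker genes. Of 11 markers of MDAMB231, 5 had a start in a domain (FOSL1, AXL, VIM, PLAU and EGFR), 5 under a narrower peak and 1, SPARC, under none. Of 12 luminal markers, 2 were in a domain and 8 under a narrower peak. Of 16 markers of blood, endothelial, muscle, nerve and other cells, 0 were in a domain and 15 had no H3K4me3 peak. The intervals were 21.3% to 72.0% for the line's markers, 4.70% to 44.8% for the luminal ones and 0% to 19.4% for the others. Only the last held the 4.34% of all coding genes. The interval of the line's markers lay above that of the other cell types, while the luminal interval overlapped both. An H3K4me3 peak of any width was missing at 1 of the 11 and at 15 of the 16.

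Along the genome the share of domains varied between chromosomes. Chromosome 17 had the largest share of its H3K4me3 peaks as domains, 61 of 1003 (6.08%), and chromosome 18 the smallest, 2.17%. In 71 pairs, neighbouring domains lay within 100 kb of each other, and 15 groups of 3 or more were linked in this way. How often as many narrower peaks would lie within 100 kb of each other was not counted, so these pairs and groups are a description. The nearest other H3K4me3 peak of any width lay at a median of 26714 bp from a domain and 29376 bp from a peak of 2500 to under 5000 bp, so these medians were close. The largest group held 5 domains over 305 kb of chromosome 11, with CDC42EP2, NEAT1, MALAT1, EHBP1L1 and MAP3K11 among their genes. A further group of 3 on the same chromosome, over 65.8 kb, held CFL1 and the FOSL1 domain. Another H3K4me3 peak lay within 2 kb of 9.48% of domains, against 5.30% of peaks of 2500 to under 5000 bp.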

How the data were processed

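ChIP-seq and FAIRE peak lists of MDAMB231 cells were analysed. The authors aligned reads with BWA to hg19, removed duplicates with Samtools, combined the samples of each assay and called peaks against input, with MACS for histone marks and FindPeaks for FAIRE. The submitters' notes also name TopHat and HOMER. For histone peaks the deposited value is the MACS score, which is the log10 of the p-value times minus 10. The deposited FAIRE value is taken as the height of the signal, from the values themselves since the file has no header. Read depth per sample is not in the deposited lists. The members and gene lists were chosen with earlier results of these data known.

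Regions shared sequence when at least 1 base overlapped. Counts and Wilson intervals were made in Python 3.11.15 with numpy 2.4.6 and pandas 2.3.3. The intervals of medians, used to judge the alternatives, were made with scipy 1.17.1. Overlap counting was tested on simulated data against bedtools 2.31.1. Figures used matplotlib 3.10.9. Gene starts came from GENCODE 44 lifted to GRCh37, on chromosomes 1 to 22, so listed genes on chromosome X were not counted. Named were the genes of the 10 widest domains, the 3 peaks on each side of the threshold, up to 6 members of each list by width, the 5 domains with most FAIRE peaks, most coding starts or the highest H3K4me1 share, and the 5 widest without H3K27Ac, FAIRE or a gene start. Not every gene under this rule is named, and other named genes were chosen after their values were seen. Alternatives were other widths, joined gaps, chromosome X, stricter partner peaks, other overlaps, flanks and sets of starts. Input reads and single samples were not available as lists.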

Additional observations from a re-analysis of the deposited data

How the results depend on the processing

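With a width of 4000 bp or more the domains numbered 1916, and the share with H3K4me1 was 34.0%, borders with H3K4me1 within 2 kb 23.1%, the share with FAIRE 70.4%, FAIRE peaks per kb 0.212 (median) and the downstream reach 3313 bp. With 7000 bp or more they numbered 143, and the share with H3K27Ac was 97.2%, with H3K4me1 51.0%, borders with H3K4me1 33.9%, the share with FAIRE 85.3%, FAIRE peaks per kb 0.203 and the downstream reach 6089 bp. The counts and the reach follow from the threshold itself. For the other values the cause was not tested. With partner peaks of score 100 or more, H3K4me1 was found at 26.2% of domains and 17.0% of borders. With only the higher part of the FAIRE list, from its median height up, 56.6% of domains held a FAIRE peak, at a median of 0.137 per kb. With the domain centre inside the partner peak the shares were 14% for H3K4me1 and 19.4% for FAIRE, and with at least 50% of the domain covered H3K4me1 was at 17.5%. A flank of 5 kb gave 30.8% of borders with H3K4me1. Starts of any coding transcript gave 95.3% of domains and starts of genes of every type 89.7%. The other 21 values moved by less than their interval, or for counts by less than 1.5 times, among them 853 domains with gaps of 1000 bp or less joined and 722 with chromosome X added. No paired analysis was possible because the deposited lists merge the samples of an assay, and for the same reason leaving out a replicate was not possible. The ceiling of the score limits any ranking of strong peaks. Read depth is not in the lists, so its part in which weak peaks were called was not tested.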
